A study of Rattus norvegicus with 21 samples.

Results

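Pituitary gene expression was compared between male ACI and Brown Norway (BN) rats after 12 weeks of treatment with diethylstilbestrol (DES), a synthetic estrogen. The 2 groups held 4 arrays each, chosen by their labels, and so made up 8 of the 21 arrays of the study. Each rat had an implant with 5 mg of DES placed under the skin between the shoulder blades at 9 weeks of age and was killed at 21 weeks of age, 4 hours after an injection of BrdU at 50 mg/kg. The controls of the same strains, 3 arrays each, were males of the same age that carried an empty implant and received the same BrdU. The rats were inbred animals from a commercial breeder, and the DES dose was not varied. Each array was taken as the gland of 1 rat. The labels give both the number of rats and a number of independent replicates that is smaller by 1, so the p values measure the spread between these arrays and may be partly technical.

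The anterior pituitary holds lactotrophs, somatotrophs, gonadotrophs, thyrotrophs and corticotrophs, each of which secretes its own hormone, together with folliculostellate support cells, vessels and resident macrophages. Estrogens drive the growth and secretion of lactotrophs, the cells that make prolactin, and suppress the gonadotropins by negative feedback. The ACI strain is known for a strong response of its lactotrophs to estrogens and the BN strain for a weak one, and the comparison asks in which genes the treated glands of the 2 strains differ. The labelled tissue was checked against its markers. Among the hormone genes of the anterior lobe, Prl, Gh1, Cga and Tshb had group mean signals of at least 6439 ± 624 (SD, n = 4) in both DES groups. Lhb, Fshb and Pomc averaged 229.9 ± 22.6, 197 ± 15.1 and 53.9 ± 35.2 in ACI and 1137 ± 173, 394 ± 37.9 and 163 ± 49.0 in BN after DES. Avp and Oxt, which mark the neural lobe, averaged 20.2 and 33.8 in ACI and 15.4 and 19.3 in BN. The Avp and Oxt means, and that of Pomc in ACI, lay under 67.0, the lowest value of the 40th percentile on any array, and group means under that level were taken as near the floor, where the size of a difference is uncertain. Whole glands were measured, so fewer cells of a type and less RNA per cell cannot be told apart.

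BN DES arrays 3 and 4 stood apart from BN DES arrays 1 and 2. Pearson's r across probe sets was 0.973 between arrays 1 and 2 and between 0.944 and 0.948 for any pair of an array numbered 1 or 2 with one numbered 3 or 4, while the ACI DES arrays correlated with each other at 0.965 to 0.972. Between the mean of numbers 3 and 4 and that of numbers 1 and 2, 9.76% of probe sets differed by more than 2-fold in BN, against 4.23% in ACI. The share was 6.36% in DES-treated Copenhagen (COP) rats, a further strain of the study. The ratio of 3′ to 5′ signal of the beta-actin control was higher on DES arrays 3 and 4 than on 1 and 2 in each strain. In BN it was 3.51 and 3.52 against 2.93 and 2.61, and in ACI 3.38 and 3.52 against 2.82 and 3.03. In COP it was 3.33 and 3.22 against 2.93 and 3.01. The cre spike-in control, which is added in equal amount to every sample, read 60933 and 40646 on BN DES 3 and 4, 30391 and 28940 on BN DES 1 and 2, and 32756 to 40613 on the ACI DES arrays. The arrays were kept, and counts are also given without BN DES 3 and 4. The median signal ran from 118.8 to 125 on the ACI DES arrays and from 133.7 to 139.4 on the BN DES arrays.

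After DES, 4022 of 14217 genes differed between ACI and BN (28.3%, limma on log2 of signal plus 16, Benjamini-Hochberg adjusted p under 0.05). Of these, 1804 were higher in ACI (12.7%) and 2218 lower (15.6%), and 1241 differed by more than 2-fold, 485 higher and 756 lower. The counts of list members below are to be read against these shares of all genes, 12.7% higher and 15.6% lower. Without BN DES 3 and 4, 1575 genes were higher and 1847 lower. The balance of higher and lower genes depended on scaling: 44.9% of the called genes were higher in ACI with the authors' scaling, and 66.1% when every array was centered on its own median, which moved the median difference of all probe sets from -0.0953 to 0.0614 on the log2 scale. In control rats the same strain comparison called 768 genes (5.4%), 385 higher in ACI (2.71%) and 383 lower (2.69%). BN control 3 had a 3′ to 5′ beta-actin ratio of 7.24, against 2.61 to 4.48 on the other arrays. It enters the control comparison, the interaction and the change with DES in BN. Without it, 939 probe sets were called in controls, against 1308 with it, and 2284 in the interaction, against 2743. Of the genes called after DES, 389 were also called in controls with the same sign, which is 9.67% of the list after DES and 50.7% of the list in controls, and 79 were called in controls with the opposite sign.

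The strain difference after DES was then tested against that in controls, which is the interaction of strain with treatment. The interaction was called for 1854 genes (13%), 869 of them more positive after DES than in controls (6.11%) and 985 more negative (6.93%). It was called for 1584 of the 4022 genes that differed after DES (39.4%), and for 655 of the 1241 that differed by more than 2-fold (52.8%). Of 31042 probe sets, 21.2% were called after DES, 4.21% in controls and 8.84% in the interaction. The interaction and the comparison after DES share the 8 DES arrays. Each strain was also set against its own controls, again on the same DES arrays, so the following values describe the called genes and do not test them. DES changed 44.8% of all genes in ACI (18.7% rose and 26.1% fell) and 31.1% in BN (13.5% rose and 17.6% fell). For the 1804 genes higher in ACI, the median change with DES was 0.82 in ACI and 0.19 in BN on the log2 scale, and for the 2218 lower genes it was -0.88 in ACI and -0.26 in BN. The mean of the DES-treated COP rats lay between the ACI and BN means for 81.2% of the called genes and for 50.5% of all genes. The called genes were picked for distant ACI and BN means on these arrays, which by itself raises that share.

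**Figure D1:**
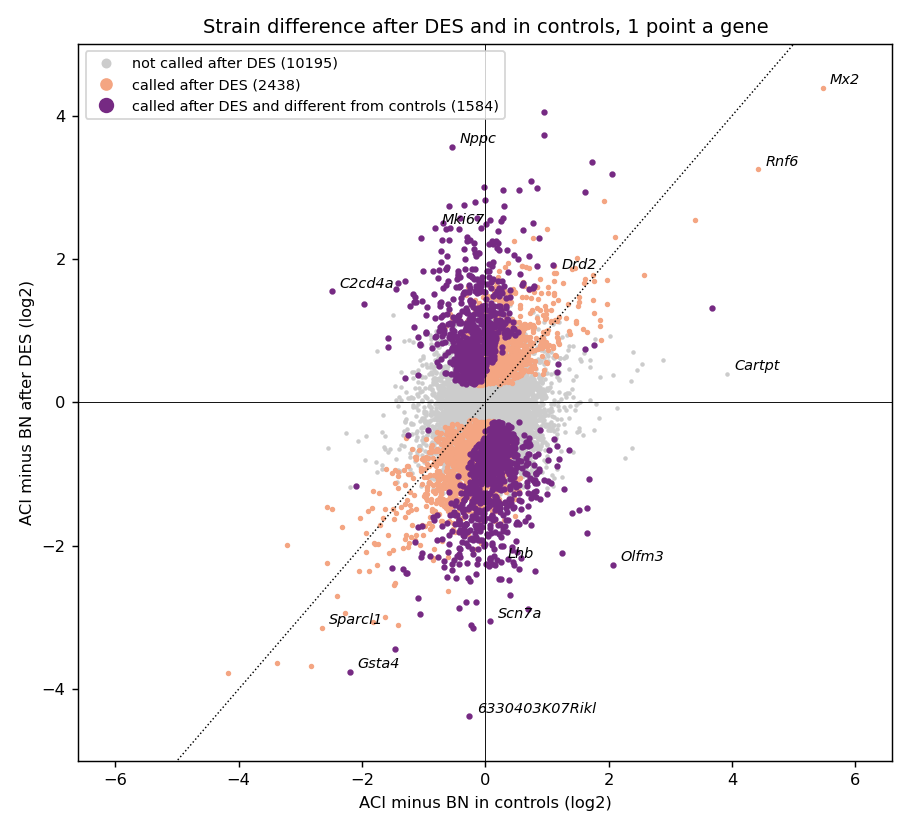
Each point is 1 of 14217 genes, placed by the log2 difference between ACI and BN in controls (horizontal) and after DES (vertical); colors mark genes called after DES, and those for which the interaction of strain and treatment was also called, and the dotted line marks equal differences. Rnf6 and Sparcl1 lie near the dotted line, whereas Nppc, Lhb and 6330403K07Rikl lie near the vertical axis and C2cd4a and Olfm3 in the quadrants of opposite sign.

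Mitosis genes were the list with the highest median difference of the 33 lists examined. Their products run the division of the cell: Ccnb1 and Cdk1 form the kinase that starts mitosis, Mki67 coats the condensed chromosomes, and Cdca3 promotes the breakdown of an inhibitor of mitotic entry. Of 24 measured genes, 22 were higher in ACI after DES and 0 lower, with a median difference of 1.63 on the log2 scale against -0.07 for all genes. In controls 0 were higher and 1 was lower (median -0.25), and the interaction was called for 17, all of them upward. Without BN DES 3 and 4, 21 of the 24 were higher.

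The promoters of 3 of these genes are shown because mitosis genes as a group carry a pair of known elements, the cell cycle genes homology region (CHR, searched as TTTGAA and its complement TTCAAA) and the CCAAT box (searched as CCAAT and ATTGG). Each runs 5′ to 3′ from 250 bases before to 50 bases after the start of the gene on the rat assembly GRCr8 of RefSeq, and capitals mark the matches on either strand. GRCr8 was built from a BN rat, and the ACI sequence was not analysed here.
Ccnb1 (chr2:33655176-33655475, minus strand): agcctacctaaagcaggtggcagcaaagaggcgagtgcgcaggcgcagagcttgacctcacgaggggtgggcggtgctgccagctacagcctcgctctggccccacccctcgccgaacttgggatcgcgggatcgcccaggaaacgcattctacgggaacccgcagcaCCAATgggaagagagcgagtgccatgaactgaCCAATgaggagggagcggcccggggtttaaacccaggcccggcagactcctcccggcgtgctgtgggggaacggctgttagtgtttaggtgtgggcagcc
Cdca3 (chr4:159320953-159321252, plus strand): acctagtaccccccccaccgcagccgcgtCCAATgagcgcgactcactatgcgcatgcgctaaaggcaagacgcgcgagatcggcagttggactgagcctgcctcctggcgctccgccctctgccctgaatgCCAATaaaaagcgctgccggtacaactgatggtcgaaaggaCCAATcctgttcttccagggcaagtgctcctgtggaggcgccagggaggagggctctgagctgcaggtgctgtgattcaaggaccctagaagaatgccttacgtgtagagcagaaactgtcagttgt
Mki67 (chr1:199952544-199952843, minus strand): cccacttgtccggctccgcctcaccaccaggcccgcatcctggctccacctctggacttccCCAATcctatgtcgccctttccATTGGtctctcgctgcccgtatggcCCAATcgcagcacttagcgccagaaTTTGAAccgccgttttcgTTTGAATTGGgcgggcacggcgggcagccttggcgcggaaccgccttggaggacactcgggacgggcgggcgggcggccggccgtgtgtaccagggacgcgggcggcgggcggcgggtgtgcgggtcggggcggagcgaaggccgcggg
Ccnb1 had CCAAT matches 82 and 50 bases before its start, and Cdca3 had them 221, 118 and 77 bases before. Neither Ccnb1 nor Cdca3 held a CHR match in this window. Mki67 had CHR matches at 117 and 99 bases, the nearer of which overlaps an inverted CCAAT match. Of the 22 higher mitosis genes 19 had a promoter in the table, of which 13 held a CHR match (68.4%) and 16 a CCAAT match (84.2%). Over all 24 measured mitosis genes, 20 had a promoter, and the shares were 70% and 85%, so they describe the list and not the strain difference. Among all 27457 promoters of that length the shares were 18.1% and 37.7%. A match is a run of letters and was not tested for binding.

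Mki67 read 650.1, 599.5, 689 and 712 on the ACI DES arrays and 143, 149.8, 88 and 73.8 on the BN DES arrays. The groups did not overlap, and the ACI signal was 5.41-fold higher (log2 2.44, SE 0.24, adjusted p = 1.03e-07). Its controls averaged 110.1 ± 35.0 in ACI and 213 ± 83.2 in BN (SD, n = 3), so DES raised it in ACI (log2 2.47, adjusted p = 7.08e-08) and lowered it in BN (log2 -0.79, adjusted p = 0.031). Cdca3 read 933, 743, 795 and 832 in ACI and 211, 182, 212 and 215 in BN, again without overlap (log2 1.93, SE 0.19, adjusted p = 6.71e-08). It rose with DES in both strains, by 2.66 in ACI (adjusted p = 3.08e-10) and by 0.80 in BN (adjusted p = 0.00522). Ccnb1, the regulatory partner of Cdk1, read 429, 429, 438 and 442 in ACI and 115, 126, 149 and 96.4 in BN (log2 1.72, SE 0.17, adjusted p = 1.15e-07). Over all 24 genes, DES raised 23 in ACI and lowered 0, and it raised 4 in BN and lowered 2. The members that were not called were Birc5 (log2 0.46, adjusted p = 0.266) and Aurkb (log2 -0.05, adjusted p = 0.905), both of which serve the chromosomal passenger complex. Aurkb was the member that was lower in ACI controls (log2 -1.43, adjusted p = 0.000424).

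Genes of DNA replication, the preceding stage of the cell cycle, showed a smaller median difference. Of 22 measured, 9 were higher in ACI and 1 lower, with a median of 0.55, and the interaction was called for 5, all upward. Mcm6, a subunit of the replicative helicase, read 737, 669, 681 and 750.4 in ACI and 355, 395, 150.2 and 176 in BN (log2 1.46, adjusted p = 1.78e-05). BN DES 3 and 4 were lower for Mcm6 than BN DES 1 and 2, and no BN array reached the lowest ACI array. Prim1, the catalytic primase subunit, went the other way (log2 -0.77, adjusted p = 1.91e-05), as it did in controls (log2 -1.12, adjusted p = 5.19e-06). Pcna was not called (log2 0.02, adjusted p = 0.906). Pttg1, the securin first found in pituitary tumors, was 4.69-fold higher in ACI, at 612, 554, 467 and 479.6 against 170.5, 116, 99.8 and 46.2 (adjusted p = 1.85e-05). Cdkn1b, which encodes the cell cycle inhibitor p27, was lower in ACI after DES (log2 -0.55, adjusted p = 6.39e-05) and in controls (log2 -0.57, adjusted p = 0.000944).

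The hormone genes of the lactotroph and of the other cell types did not move alike. Prl itself was not called (log2 -0.17, 95% interval -0.54 to 0.20, adjusted p = 0.575). It read 35544, 41726, 44556 and 46054 in ACI and 35967, 36523, 68841 and 53748 in BN, and the groups overlapped. Gh1, which encodes growth hormone, and Cga, the shared subunit of LH, FSH and TSH, were lower in ACI at the threshold, with log2 differences of -0.54 (adjusted p = 0.0332) and -0.55 (adjusted p = 0.0263). Gh1 read 28418, 32614, 29438 and 28569.7 in ACI and 35951, 32920.3, 61190.2 and 48692 in BN. For Prl, Gh1 and Cga, BN DES 3 and 4 carried the highest signals of the 8 arrays, as they did for the cre spike-in, and neither Gh1 nor Cga was called without them (Gh1 log2 -0.21, Cga log2 -0.19) or with median centering.

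The subunits that are particular to the gonadotropins and to TSH were lower in ACI by more. Lhb, the LH subunit, read 222, 224, 211 and 263 in ACI and 1329, 1095, 921 and 1203 in BN. The groups did not overlap, and the signal was 4.66-fold lower in ACI (log2 -2.22, SE 0.12, adjusted p = 8.38e-12). In controls it averaged 16642 ± 2377 in ACI and 14079 ± 2412 in BN (SD, n = 3), which was not called (log2 0.25, adjusted p = 0.462). DES lowered Lhb in both strains, with log2 changes of -6.08 in ACI and -3.61 in BN, and the interaction was -2.47 (adjusted p = 3.36e-08). Fshb, the FSH subunit, read 183, 201, 189 and 217 in ACI and 434, 343, 402 and 399.6 in BN (log2 -0.94, adjusted p = 1.55e-06). It fell from control means of 10583 ± 1592 in ACI and 10088 ± 1487 in BN (SD, n = 3). Tshb, the TSH subunit, read 7098, 6761, 5673 and 6225 in ACI and 26142, 22796, 41134 and 30434 in BN (log2 -2.19, SE 0.16, adjusted p = 1.43e-09). It fell with DES in ACI (log2 -2.11, adjusted p = 1.78e-09), and in BN its change was 0.15 (adjusted p = 0.62). Pomc, the precursor of ACTH, read 43.7, 73.1, 89.3 and 9.30 in ACI and 143, 115, 165 and 230.2 in BN and was near the floor in ACI (log2 -1.51, adjusted p = 0.0258). Without BN DES 3 and 4, Pomc was not called, while Lhb, Fshb and Tshb were. By the two-sided exact permutation test over the 70 splits of 8 arrays, Gh1, Lhb, Fshb, Cga, Tshb and Pomc each reached p = 0.0286, the smallest the design allows, and Prl had p = 0.486.

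**Figure D2:**
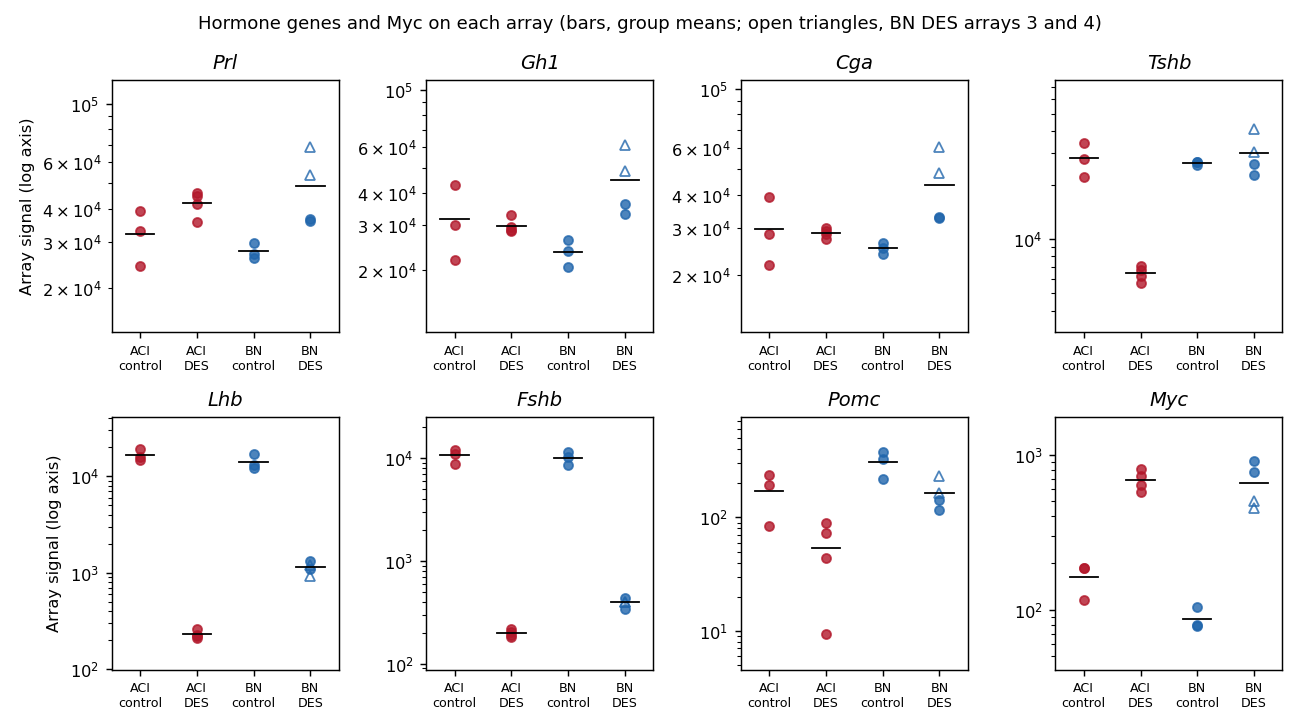
Array signal (log axis) of 7 hormone genes and Myc on each ACI and BN array, controls (n = 3) and DES (n = 4); bars are group means and open triangles mark BN DES arrays 3 and 4. Lhb, Fshb and Tshb lie lower in all 4 ACI DES arrays than in any BN DES array, Prl and Myc overlap, and the triangles lie highest for Prl, Gh1, Cga and Tshb.

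The gonadotroph markers followed the hormone subunits in part. Of 10 measured, 6 were lower in ACI after DES and 0 higher (median -0.75), whereas 2 were higher and 0 lower in controls, and the interaction was called downward for 7. The regulators Nr5a1, Nr0b1 and Gata2 were among the lower ones, at -1.40, -1.53 and -1.88 (adjusted p = 1.21e-05, 1.23e-06 and 1.27e-05). Nr5a1 encodes SF1, an orphan receptor that binds the Lhb promoter, and the Lhb promoter is shown for that reason, with the single match to the SF1 site TGACCTTG (both strands searched), 124 bases before the start, in capitals.
Lhb (chr1:105037207-105037506, plus strand): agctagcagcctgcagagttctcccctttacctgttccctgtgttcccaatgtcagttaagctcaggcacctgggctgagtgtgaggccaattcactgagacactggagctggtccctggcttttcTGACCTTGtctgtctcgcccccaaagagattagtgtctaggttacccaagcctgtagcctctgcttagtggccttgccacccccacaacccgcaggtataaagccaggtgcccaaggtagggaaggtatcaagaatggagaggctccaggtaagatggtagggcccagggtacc
This site was found in 1.48% of all promoters of the same length. Gnrhr, the receptor of gonadotropin-releasing hormone, and the peptide gene Cartpt were the pair that was higher in ACI controls (log2 2.55 and 3.91, adjusted p = 1.91e-07 and 1.97e-06). After DES neither was called (log2 0.53 and 0.40, adjusted p = 0.0644 and 0.505), and both interactions were called (log2 -2.01 and -3.52).

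Among thyrotroph markers 5 of 7 were lower and 1 higher (median -0.86), and all 5 measured corticotroph and melanotroph markers were lower (median -1.51). Without ACI DES 1, without BN DES 4, or with median centering, 3 thyrotroph markers were lower. Isl1, a transcription factor of thyrotrophs and gonadotrophs, read 38.4, 10.6, 74.8 and 42.7 in ACI and 340.4, 223, 247 and 297 in BN (log2 -2.46, adjusted p = 1.91e-06). Tbx19, the factor that defines corticotrophs and melanotrophs, read 144, 82.4, 76.2 and 106 in ACI and 519.7, 336, 358 and 352 in BN (log2 -1.80, adjusted p = 8.34e-07). Isl1 was near the floor in ACI. Neither was called in controls (adjusted p = 0.863 and 0.719), and DES lowered Tbx19 in both strains, with log2 changes of -3.01 in ACI and -0.94 in BN. Neurod1, a further corticotroph factor, fell with DES in ACI (log2 -0.68) and rose in BN (log2 1.03, adjusted p = 0.00239). Of 6 somatotroph markers 3 were lower and 0 higher, among them Dlk1, an epidermal growth factor-like protein (log2 -1.56, adjusted p = 6.19e-06), and the growth hormone-releasing hormone receptor Ghrhr (log2 -1.03, adjusted p = 0.00124). Ghrhr was also lower in ACI controls (log2 -0.95), and its interaction was not called.

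Lactotroph markers split. Of 8 measured, 4 were higher in ACI after DES and 2 lower, and the median was 0.05. Drd2, the dopamine receptor through which the hypothalamus restrains lactotrophs, read 4840.5, 5209.5, 4905 and 5087 in ACI and 1805, 1919, 1069.8 and 1091 in BN. The groups did not overlap (log2 1.81, SE 0.15, adjusted p = 6.08e-09), and Drd2 was also higher in ACI controls (log2 1.12, adjusted p = 0.000206). Gal, which encodes galanin, a growth factor peptide of estrogen-treated lactotrophs, read 36473, 42249, 44146 and 44859 in ACI and 18279, 18547, 23385 and 25618 in BN (log2 0.98, adjusted p = 4.31e-05). It rose from control means of 223 ± 51.2 in ACI and 169.8 ± 3.00 in BN, by 7.47 and 6.84 on the log2 scale. Trhr, the receptor of thyrotropin-releasing hormone, was lower in ACI (log2 -0.86, adjusted p = 0.000436), as was the prolactin receptor Prlr (log2 -0.89, adjusted p = 0.000553). Prlr was also lower in ACI controls (log2 -0.91, adjusted p = 0.00782), and its interaction was not called. Trhr rose with DES in BN (log2 1.36, adjusted p = 3.99e-06), with the highest signals on BN DES 3 and 4.

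Pituitary transcription factors, some of which are also markers above, were lower in ACI in 9 of 15 cases and higher in 2, with a median of -0.54 against 0.25 in controls. The interaction was called downward for 8 and upward for 1. Six6, a homeobox factor of the developing gland, was higher (log2 1.03, adjusted p = 2.09e-07), as was Pou1f1, the lineage factor of lactotrophs, somatotrophs and thyrotrophs (log2 0.28, adjusted p = 0.014). Both were also higher in ACI controls, Six6 by 0.47 (adjusted p = 0.0291) and Pou1f1 by 0.43 (adjusted p = 0.00597). The interaction was not called for Pou1f1. Eya1, a developmental coactivator, was lower (log2 -1.57, adjusted p = 4.65e-07).

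Most genes known to respond to estrogen in this gland or elsewhere rose in both strains. Of 16 measured, DES raised 10 in ACI and 11 in BN and lowered 0 and 1, and 6 were higher in ACI after DES and 1 lower (median 0.20). Cgref1, a secreted regulator of cell growth, read 13323, 12908, 13162 and 13555 in ACI and 4963, 4435, 5974 and 6303 in BN, from control means of 70.3 ± 3.06 and 72.2 ± 21.8 (SD, n = 3). The 4 ACI values were more than 2 times every BN value, and the difference was 1.30 on the log2 scale (adjusted p = 4.34e-06). Vip, a peptide that stimulates prolactin release, read 2296, 1055, 1404 and 1979 in ACI and 444, 384, 516 and 598 in BN (log2 1.72, adjusted p = 6.54e-06). Ccnd1, the cyclin that carries cells through G1, was higher in ACI both after DES (log2 1.12, adjusted p = 1.09e-05) and in controls (log2 1.07, adjusted p = 0.000553), with an interaction of 0.05 (adjusted p = 0.941). The progesterone receptor Pgr, a direct target of the estrogen receptor, averaged 851 in ACI and 873 in BN and was not called (log2 0.03, adjusted p = 0.953). Esr1, which encodes estrogen receptor alpha, was near the floor in both groups and was not called (log2 -0.29, 95% interval -1.42 to 0.83).

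The Ept7 interval, a locus that bears on pituitary growth under estrogen in ACI and BN crosses, was represented by Myc, Pvt1 and A1bg. After DES, Myc, a transcription factor gene that drives growth, read 816, 730.4, 636 and 575 in ACI and 774, 914, 501 and 452 in BN, with overlap (log2 0.11, 95% interval -0.36 to 0.58, adjusted p = 0.801, exact permutation p = 0.657). Pvt1, its noncoding neighbor, read 324, 256, 312 and 333 and 178, 215, 398 and 274 (log2 0.24, 95% interval -0.28 to 0.77, adjusted p = 0.56, exact permutation p = 0.429). A1bg was near the floor in both groups (log2 -0.49, adjusted p = 0.513, exact permutation p = 0.343). Of 17 measured genes known as MYC targets or as part of ribosome assembly, 5 were higher in ACI and 0 lower, with a median of 0.27. Over all genes 12.7% were higher and 15.6% lower. The higher ones on the list included Odc1, the first enzyme of polyamine synthesis (log2 0.67, adjusted p = 3.63e-06), Srm (log2 0.70, adjusted p = 0.000216) and Cad, which starts pyrimidine synthesis (log2 0.96, adjusted p = 0.000281). With median centering 10 of the 17 were higher.

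Genes of secretory load, the chaperones and other machinery of the endoplasmic reticulum, were higher in ACI in 9 of 19 cases and lower in 0 (median 0.33), and the interaction was called upward for 8. Atf4, a transcription factor of the stress response, read 13299, 14377, 14442 and 13411 in ACI and 8837, 9295, 9152 and 9529.6 in BN, and the groups did not overlap (log2 0.59, adjusted p = 5.1e-06). Dnajb11 and Manf, both secretory pathway proteins, were higher by 0.81 and 0.58 (adjusted p = 5.31e-06 and 2.95e-05). Hspa5, the main chaperone of that compartment, was not called (log2 -0.01, adjusted p = 0.983). Among granins and genes of hormone release 3 of 17 were higher and 4 lower, against 12.7% higher and 15.6% lower over all genes. Rab3b, a vesicle GTPase, read 116, 215, 178 and 211 in ACI and 593, 656, 661 and 483 in BN (log2 -1.67, adjusted p = 4e-08). Pcsk1n, an inhibitor of prohormone convertase 1, was lower as well (log2 -1.72, adjusted p = 1.07e-07).

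Macrophage and leukocyte genes were higher in ACI after DES in 10 of 16 cases and lower in 1, with a median of 0.75. In controls 0 were higher and 6 lower (median -0.53), and the interaction was called upward for 9. Cd68, a lysosomal protein of macrophages, read 500.1, 678, 478 and 522 in ACI and 240.2, 188, 196 and 178 in BN, and the groups did not overlap (log2 1.37, adjusted p = 8.86e-07). Mrc1, the mannose receptor of tissue macrophages, read 364, 440.5, 647 and 827 in ACI and 52.4, 70, 118 and 136 in BN (log2 2.42, adjusted p = 1.9e-06). C1qc, a chain of complement C1q that macrophages secrete, read 2098, 2258, 2205 and 2719 in ACI and 1038, 835, 1249.5 and 1378 in BN. It was higher in ACI after DES (log2 1.05, adjusted p = 1.92e-05) and lower in ACI controls (log2 -0.69, adjusted p = 0.0236). Csf1r, the receptor that macrophages depend on, was not called after DES (log2 0.09, adjusted p = 0.768), nor was the lysozyme gene Lyz2 (log2 0.09, adjusted p = 0.894), and the protease gene Ctss was lower in ACI (log2 -0.51, adjusted p = 0.0145). The summed signal of the 16 genes was 23340 to 25960 on the ACI arrays and 14380 to 25280 on the BN arrays, so the sums overlapped. The count differed between the array sets: 13 were higher and 0 lower without BN DES 3 and 4, and 5 were higher and 2 lower among arrays numbered 3 and 4 alone. Markers of red blood cells (0 of 5 called) and of lymphocytes and plasma cells (1 of 12, Mzb1, log2 1.75) gave few calls. Only 4 of the 12 lymphocyte and plasma cell genes passed the filter on low signals. Cd79b, Ms4a1 and Gzmb were near the floor after DES, at 15.85, 27.45 and 19.9 in ACI and 11.52, 46.5 and 38.1 in BN. Whether lymphocytes differed between the strains cannot be read from so few measurable genes. The part of cell makeup in these differences was not tested.

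Interferon-induced genes were higher in 8 of 19 cases and lower in 2, with 4 lower and 2 higher in controls. The higher count was 5 without ACI DES 3, 4 without BN DES 1, 2 among arrays numbered 3 and 4 and 11 without BN DES 3 and 4. Irf7, a master regulator of the interferon response, read 767, 1082, 899 and 720.2 in ACI and 178, 154, 258 and 356 in BN (log2 1.86, adjusted p = 1.03e-07). DES raised it in ACI (log2 1.17, adjusted p = 5.43e-05) and lowered it in BN (log2 -1.32, adjusted p = 2.8e-05). Mx2, a GTPase induced by interferon, had the largest difference upward of all genes named by rule, at 1005, 1068, 534 and 479 in ACI and 28.7, 15.2, 21.7 and 13.7 in BN (log2 4.39, adjusted p = 5.24e-11). It was near the floor in BN with and without DES, and the difference was larger still in controls (log2 5.47), where ACI averaged 1798 ± 286 (SD, n = 3). The other Mx2 probe set was not called (log2 0.66, adjusted p = 0.103). Ifitm3, a membrane protein that blocks virus entry, was lower in ACI (log2 -1.16, adjusted p = 1.81e-07). Of 16 genes of antigen presentation 3 were higher and 0 lower, against 12.7% higher and 15.6% lower over all genes: Tapbp (log2 0.90), RT1-Bb (log2 1.42) and Tap1 (log2 0.76). The direction of this list turned with the array set, with 7 higher and 0 lower (median 0.46) among arrays numbered 1 and 2 and 2 higher and 3 lower (median -0.38) among arrays numbered 3 and 4.

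Detoxification genes were lower in ACI in 13 of 19 cases and higher in 3, with a median of -1.08. In controls 5 were lower and 1 higher (median -0.43), and the interaction was called downward for 5 and upward for 0. Gsta4, a glutathione transferase that clears products of lipid oxidation, read 183, 121, 235 and 132 in ACI and 2306, 2441, 2414 and 2436 in BN. The difference of -3.76 on the log2 scale, a 13.5-fold lower signal in ACI (SE 0.14, adjusted p = 6.18e-14), exceeded that in controls (-2.19), and the interaction was -1.57 (adjusted p = 5.81e-05). Aldh1a1, which makes retinoic acid, read 290.5, 220.4, 219 and 207 in ACI and 1392, 1227, 1121 and 1062 in BN (log2 -2.28, adjusted p = 8.38e-12). Its control means were 7122 ± 1039 and 6808 ± 284 (SD, n = 3), so it fell in both strains and further in ACI (interaction -2.34, adjusted p = 3.9e-08). Gsta1, by contrast, differed by -2.35 after DES and -1.89 in controls, and its interaction was not called (adjusted p = 0.459).

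Folliculostellate and stem cell markers were lower in ACI in 6 of 8 cases and higher in 0 (median -1.26), and 3 were lower in controls. S100b, the defining protein of folliculostellate cells, read 793, 564, 552 and 409 in ACI and 2539, 2388, 2721 and 2691 in BN, with no overlap (log2 -2.16, SE 0.14, adjusted p = 2.68e-10). Sox2, the factor of pituitary stem cells, read 227, 174, 164 and 141 in ACI and 799, 819.9, 552 and 349.9 in BN (log2 -1.69, adjusted p = 1.04e-06), but of its other probe sets 1 was called in the same direction and 1 in the opposite. Aqp4, a water channel, was lower after DES (log2 -1.96) and in controls (log2 -1.24). Of 10 endothelial markers 4 were lower in ACI and 0 higher, against 15.6% lower and 12.7% higher over all genes. Kdr, the main receptor of VEGF on vessels, read 1201, 1215, 1265 and 1318 in ACI and 2236, 2318, 2488 and 2362 in BN (log2 -0.90, adjusted p = 1.49e-05). It fell with DES in ACI (log2 -0.49, adjusted p = 0.00828) and rose in BN (log2 0.93, adjusted p = 2.53e-05). Pecam1 was not called (log2 0.05, adjusted p = 0.926), and 2 endothelial markers were lower without BN DES 3, with or without BN DES 4. Of 12 genes of VEGF and angiopoietin signaling 4 were lower and 0 higher, to be read against the same shares. The hypoxia factor Epas1 led the lower ones (log2 -1.12, adjusted p = 2e-08), while Vegfa was not called (log2 -0.12). Of 12 fibroblast, pericyte and matrix genes 2 were higher and 4 lower, with a median of -0.508. Col1a2, a collagen chain, was higher (log2 1.86, adjusted p = 1.75e-07), and Dcn, a matrix proteoglycan, was lower (log2 -1.51, adjusted p = 0.00118). Dcn was higher in ACI controls (log2 1.515, adjusted p = 0.0162), and its interaction was -3.02.

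**Figure D3:**
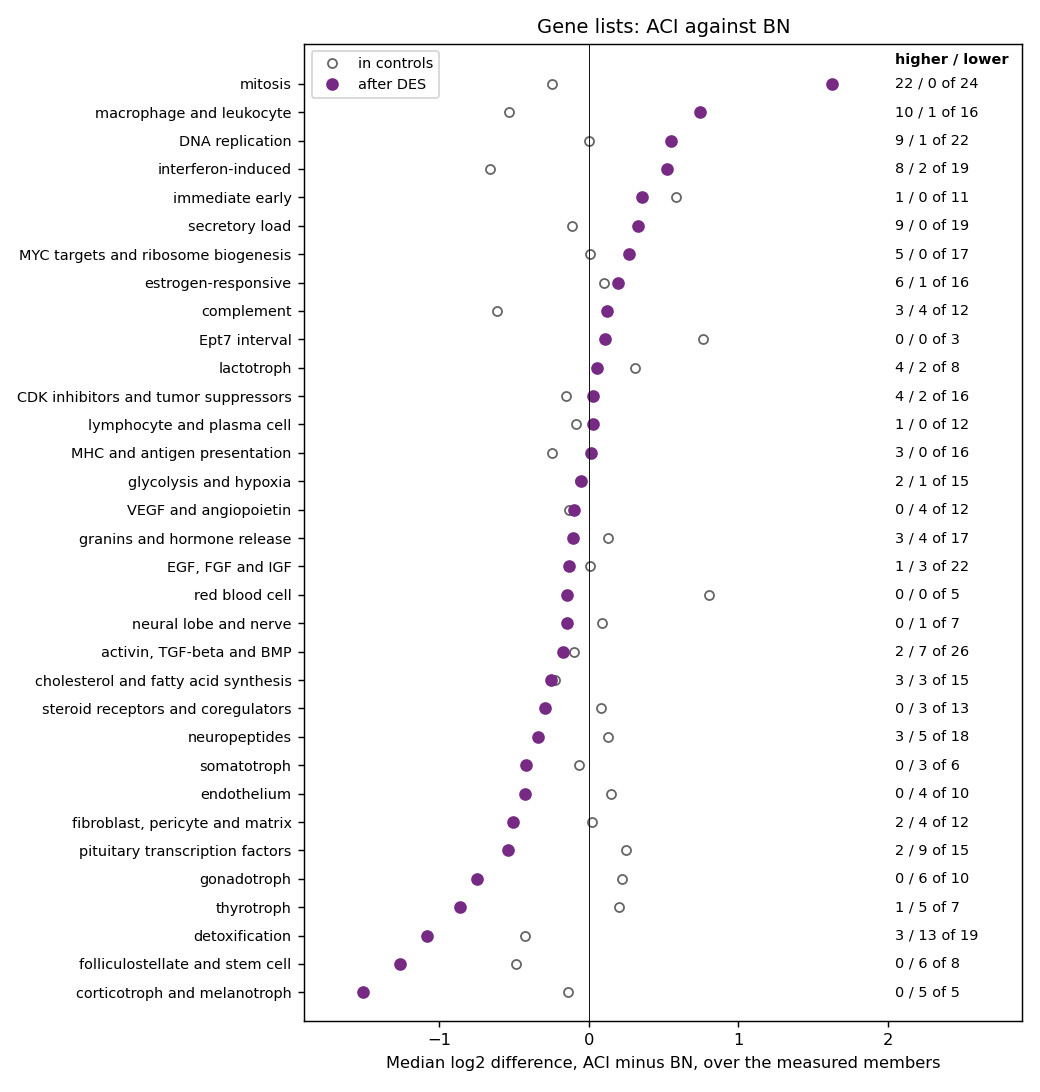
Median log2 difference between ACI and BN over the measured members of each of 33 gene lists, after DES (filled) and in controls (open), with the number of members higher and lower in ACI after DES at the right. Mitosis lies highest after DES at 1.63 and the corticotroph and melanotroph list lowest at -1.51.

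Neuropeptide genes differed in both directions. Nppc, the precursor of C-type natriuretic peptide, read 7205, 6756, 8277 and 8013 in ACI and 719, 826, 407 and 612 in BN. The groups did not overlap, and Nppc was 11.9-fold higher in ACI (log2 3.57, SE 0.21, adjusted p = 3.37e-11). In controls it averaged 82.8 ± 10.9 in ACI and 128 ± 27.7 in BN (SD, n = 3), so DES raised it by 6.26 in ACI and 2.16 in BN on the log2 scale, and the interaction was 4.11 (adjusted p = 3.88e-08). Guca2b, the precursor of uroguanylin, which also acts through cyclic GMP, showed the reverse order, at 879, 1601, 591 and 859 in ACI and 7113, 6184, 6649 and 7517 in BN (log2 -2.87, adjusted p = 4.74e-10). It too rose in both strains, by 4.19 in ACI and 6.62 in BN. Calcb, a calcitonin gene-related peptide, was higher in ACI controls (log2 1.65) and lower in ACI after DES (log2 -1.82, adjusted p = 2.48e-05), with a rise in BN of 3.19 (adjusted p = 2.5e-08). Penk, which encodes the enkephalins, was lower in ACI in both conditions (log2 -1.22 after DES and -0.95 in controls). Over the list of 18, 3 were higher and 5 lower, against 12.7% higher and 15.6% lower over all genes.

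Ligands of the activin, TGF-beta and BMP families and their mediators were lower in ACI in 7 of 26 cases and higher in 2, against 15.6% lower and 12.7% higher over all genes. Inhbb, an activin subunit, read 275, 271, 261 and 236 in ACI and 654, 688, 507 and 526 in BN (log2 -1.13, adjusted p = 5.56e-06), and the activin antagonist gene Fstl3 was higher (log2 2.21, adjusted p = 0.000269). Among genes of EGF, FGF and IGF signaling, of which 1 of 22 was higher and 3 were lower, Igfbp5, a binding protein of insulin-like growth factors, read 3422, 2957, 2378 and 2345 in ACI and 8481, 7898, 9368 and 7882 in BN (log2 -1.61, adjusted p = 4.12e-10), and 3 of its 4 other probe sets were called the same way. Of 13 steroid receptors and coregulators 3 were lower and 0 higher. Nr3c1, the glucocorticoid receptor, read 715, 653, 571 and 637 in ACI and 1732, 1561, 1838 and 1601 in BN (log2 -1.37, SE 0.09, adjusted p = 2.48e-10), and Nr3c2, the mineralocorticoid receptor, was lower too (log2 -0.69, adjusted p = 0.000596). The remaining lists, read against 12.7% higher and 15.6% lower over all genes, gave 2 higher and 1 lower of 15 for glycolysis and hypoxia, 3 and 3 of 15 for cholesterol and fatty acid synthesis, 4 and 2 of 16 for CDK inhibitors and tumor suppressors, 3 and 4 of 12 for complement, 1 and 0 of 11 for immediate early genes, and 0 and 1 of 7 for neural lobe and nerve.

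The 12 largest differences upward were then taken among called genes whose arrays did not overlap, as 28% of all genes did not. Of these 12, Mx2, Rnf6, RT1-A, Slc3a1 and Atp10d were also higher in ACI controls. Spink4, a secreted protease inhibitor, read 1379.6, 2482, 1566 and 2942 in ACI and 50.2, 84.1, 158 and 172 in BN (log2 4.05, adjusted p = 4.53e-08), with an interaction of 3.11 (adjusted p = 0.00119). Scarf2, a scavenger receptor, read 3605, 3564, 2129 and 2609 in ACI and 510.5, 453, 277 and 227 in BN, from control means of 70.2 ± 14.1 and 71.1 ± 12.8 (SD, n = 3), and 2 of its 3 other probe sets were called the same way. Atp10d, a lipid flippase of the P4 ATPase family, read 2067, 1935, 2101 and 2003 in ACI and 204, 321, 195 and 265 in BN (log2 2.99, adjusted p = 8.38e-12). The interaction was also called for Pilra, an inhibitory receptor of myeloid cells (3.72 after DES), RT1-A, an MHC class I gene (3.36), Slc3a1, a subunit of the cystine transporter (3.18), Cfd, complement factor D (3.09), Chad, a cartilage matrix protein (2.97), and Plaur, the urokinase receptor (2.96). Of these, Pilra, Cfd and Chad were near the floor in BN. Mx2 and Rnf6, an E3 ubiquitin ligase gene, were the pair whose interaction was not called. Rnf6 averaged 619 ± 41.8 in ACI controls and 16.3 ± 16.8 in BN controls (SD, n = 3) and was near the floor in BN after DES (50.4, 20.4, 34.3 and 33.3), against 451, 436, 544 and 398 in ACI (log2 3.25, adjusted p = 4.53e-08).

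**Figure D4:**
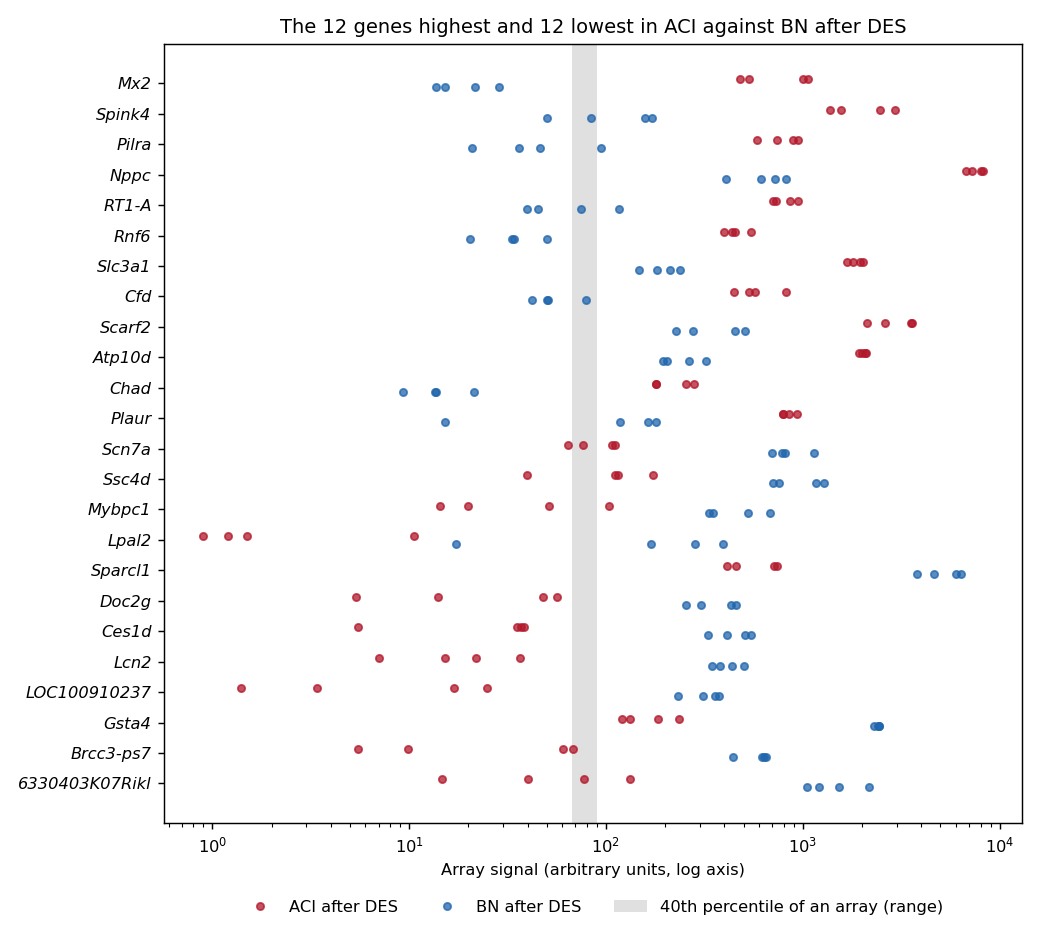
Array signal (log axis) on the 4 ACI (red) and 4 BN (blue) arrays after DES for the 12 largest differences of each sign among called genes whose groups did not overlap; the gray band spans the 40th percentile of the 21 arrays, 67.0 to 90.6. Signals left of the band are near the floor, as for Mx2 in BN and Lcn2 in ACI.

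Of the 12 largest differences downward, the transcript 6330403K07Rikl read 132, 77.4, 40 and 14.7 in ACI and 1052, 1212, 2172 and 1535 in BN, a difference of -4.38 on the log2 scale (adjusted p = 3.3e-10), with ACI near the floor. Its control means were 2202 ± 311 in ACI and 2632 ± 295 in BN (SD, n = 3), and DES lowered it in ACI (log2 -4.98, adjusted p = 2.11e-11), with a change of -0.86 in BN (adjusted p = 0.0577). Scn7a, an atypical sodium channel, read 111, 64.1, 108 and 76.8 in ACI and 694, 788, 1146 and 815 in BN and fell in both strains, with log2 changes of -4.15 in ACI and -1.01 in BN. The interaction was called as well for Doc2g (-3.15 after DES), Mybpc1 (-3.11) and the carboxylesterase gene Ces1d (-3.44), all of which were near the floor in ACI, and for Gsta4. Sparcl1, a matricellular protein, differed in both conditions, with 711, 742, 411 and 457 in ACI and 6338, 5984, 4641 and 3807 in BN after DES (log2 -3.14) and -2.65 in controls. Lcn2, an iron-binding lipocalin, Brcc3-ps7 and LOC100910237 were near the floor in ACI with and without DES, and their differences after DES were -3.63, -3.78 and -3.67. Ssc4d (-3.06) and Lpal2 (-3.11) completed the list, the latter with a Lpal2 signal of 17.4 on BN DES 1 against 169.2 to 393.2 on the others.

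Some genes, C2cd4a, C2cd4b and Olfm3, reversed their order between the strains. The others below are described by their change with DES in each strain, and their strain difference in controls is not given. C2cd4a and C2cd4b, paralogs first known as inflammation-induced nuclear factors, were lower in ACI controls (log2 -2.48 and -1.97) and higher in ACI after DES (log2 1.55 and 1.37, adjusted p = 5.6e-06 and 2.13e-07). C2cd4a read 1324, 1008, 1170.4 and 1123 in ACI and 345, 398, 371 and 422 in BN after DES, and its control means were 93.6 ± 14.7 and 635 ± 283 (SD, n = 3). DES raised it in ACI (log2 3.42), with a change of -0.61 in BN (adjusted p = 0.0511). Slc40a1, the iron exporter ferroportin, read 838, 1061, 1128 and 1327 in ACI and 180.1, 206, 171 and 150.3 in BN. It rose with DES in ACI (log2 1.60, adjusted p = 7e-08) and fell in BN (log2 -1.60, adjusted p = 2.11e-07), and both of its other probe sets were called the same way after DES. Olfm3, a secreted olfactomedin protein, went the opposite way, at 645, 607, 597 and 759 in ACI and 2049, 2207, 5864 and 3894 in BN (log2 -2.27, adjusted p = 6.42e-07), after control means of 3376 ± 889 and 784 ± 142 (SD, n = 3). BN DES 3 and 4 read highest for Olfm3, and BN DES 1 and 2 also lay above every ACI array. Vcan, a matrix proteoglycan, fell with DES in ACI (log2 -1.66, adjusted p = 0.000315) and rose in BN (log2 1.49, adjusted p = 0.00173), with -2.35 between the strains after DES, and was near the floor in ACI after DES. Dnase1l3, an endonuclease gene, rose in ACI (log2 2.89) and was 6.68-fold higher than in BN, where it was near the floor, and Defb24, a defensin gene, fell in ACI (log2 -3.19) and was 7.40-fold lower. In BN their changes with DES were -0.44 and 0.40 (adjusted p = 0.338 and 0.356).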

How the data were processed

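Pituitary RNA was hybridized to 1-color Affymetrix Rat Genome 230 2.0 arrays. The deposited values are linear intensities, 1 per probe set, which the authors scaled per array to a common trimmed mean near 500. The summarization software is not given in the sources used here. Groups were taken from the sample titles. The 57 control probe sets were left out, and log2 of intensity plus 16 was fitted for 31042 probe sets on all 21 arrays, with 1 mean for each of 6 groups, in limma 3.58.1 under R 4.3.3 (eBayes with trend). P values were two-sided and Benjamini-Hochberg adjusted over all probe sets, and folds are on the log2 of signal plus 16 scale. A probe set was named only where the platform annotation gave 1 symbol (20826 probe sets, 436 with several and 9780 with none), and the probe set with the highest mean stood for each of 14217 genes. On simulated data 79% of probe sets changed by log2 of 1 and 98% of those changed by 2 were recovered. There 200 of 31042 probe sets were changed, all above a cut on mean signal. The noise was independent and of the same spread in every group. These shares therefore do not carry over to genes near the floor or to the split among the BN DES arrays.

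Genes were named by rule: 12 of each sign with the largest called difference, no overlap and a higher group above the median signal, the 6 largest interactions of each sign, 11 hormone and interval genes, and up to 3 called members of each of 33 lists with the smallest adjusted p. Other list members are named as examples. The lists hold 478 genes, 431 of them measured. Members and lists were chosen with earlier results of these data known. Alternatives were another constant, a filter on low signals, median centering, quantile normalization, no trend, blocks, subsets of arrays and leaving out each array. Promoters were from RefSeq on GRCr8. Strain differences under the probes can change a signal without a change in RNA.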

Additional observations from a re-analysis of the deposited data

Results flagged for a closer look

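On single arrays, 10 signals stood far from the other 3 arrays of their group, of 238 groups of 4 examined. Chance alone gives this in about 5% of such groups. In ACI after DES these were Ces1d, at 5.50 on array 1 against 35.3 to 38.4 on the others, Lpal2, at 10.6 on array 2 against 0.90 to 1.5, Odc1, at 8299.5 on array 4 against 8760.3 to 8775.8, and Gsta1, at 724.1 on array 4 against 398.3 to 431.1. In BN after DES they were Brcc3-ps7, at 442 on array 2 against 621.6 to 647.1, Tbx19, at 519.7 on array 1 against 336 to 357.8, Aqp4, at 408 on array 3 against 360.3 to 367.5, Cdca3, at 181.6 on array 2 against 211.1 to 215.2, Mcm2, at 513 on array 2 against 390.6 to 408.5, and Slc2a1, at 514.4 on array 3 against 765.2 to 790.9. Ces1d and Lpal2 were near the floor in ACI.

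The strain difference after DES differed from that in controls, by limma's test of the interaction, for 79 of the named genes, 37 upward and 42 downward. Over all genes the interaction was called for 13%. Most named genes were picked through a call after DES, and some for the interaction itself, which by itself raises their count. On the log2 scale the largest upward values were 4.11 for Nppc, 4.03 for C2cd4a, 3.33 for C2cd4b, 3.33 for Dnase1l3, 3.26 for Mki67, 3.20 for Slc40a1, 3.11 for Spink4, 3.02 for Scarf2, 2.77 for Pilra, 2.68 for Plaur, 2.49 for Irf7, 2.43 for Chad and 2.42 for Pttg1. These were followed by 2.36 for Cfd, 2.18 for Vip, 2.14 for Atp10d, 2.04 for Col1a2, 1.91 for Ccnb1, 1.86 for Cdca3, 1.85 for Mcm6, 1.80 for Mzb1, 1.74 for C1qc, 1.62 for RT1-A, 1.60 for Cd68, 1.37 for C1qb and 1.30 for Cgref1. Smaller upward values were 1.18 for Cad, 1.13 for Slc3a1, 1.03 for Tapbp, 0.98 for Odc1, 0.95 for Tap1, 0.83 for Mcm2, 0.82 for Pdk1, 0.69 for Manf, 0.69 for Dnajb11, 0.57 for Atf4 and 0.56 for Six6.

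The largest downward values were -4.34 for Olfm3, -4.12 for 6330403K07Rikl, -3.58 for Defb24, -3.47 for Calcb, -3.34 for Lum, -3.15 for Vcan, -3.13 for Scn7a, -2.94 for Doc2g, -2.88 for Mybpc1, -2.71 for Isl1, -2.47 for Lhb, -2.44 for Guca2b, -2.34 for Aldh1a1 and -2.26 for Tshb. Next in size came -2.18 for Rab3b, -2.08 for Tbx19, -2.04 for Pcsk1n, -1.97 for Ces1d, -1.71 for Neurod1, -1.66 for Nefl, -1.57 for Gsta4, -1.52 for Dlk1, -1.45 for Igfbp5, -1.42 for Kdr, -1.32 for Tek, -1.28 for Igfbp2, -1.26 for Sox2 and -1.16 for Nr0b1. Smaller downward values were -1.13 for Trhr, -1.12 for S100b, -1.02 for Bmp7, -1.01 for Nr3c1, -1.01 for Fshb, -0.99 for Eya1, -0.95 for Emcn, -0.94 for Epas1, -0.92 for Inhbb, -0.92 for Gh1, -0.83 for Esrrg, -0.80 for Ifitm3, -0.76 for Hif1a and -0.74 for Pfkp. Genes entered both sets through a call after DES, and the same 8 DES arrays enter both tests.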

How the results depend on the processing

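After DES the count of called probe sets, 6575, lay between 4832 (fitting ACI and BN arrays alone) and 7835 (with the number sets 1 and 2 against 3 and 4 as a block) over the alternatives, and between 5590 and 6718 leaving out 1 array. Without BN DES 3 and 4, chosen after seeing the data, it was 5456, of which 4274 were shared. No shared probe set changed sign under any of these settings. The genes called numbered 3004 to 4685, and the interaction gave 2035 to 3835 probe sets against 2743. In controls, 1308 probe sets became 2643 with arrays numbered 1 and 2 alone, 338 with control array 3 of each strain alone (whose spread is taken from the DES groups), 861 without ACI control 1, 849 without BN control 1, and 849 to 1117 leaving out any 1 array. Median centering moved the higher share to 64.4% of called probe sets after DES and to 64% for the interaction, and quantile normalization gave 49.5% after DES. The deviations of same-numbered ACI and BN DES arrays correlated at 0.0475 to 0.104. Differently numbered arrays were not compared in this way, so whether replicate numbers pair the arrays was not tested. With a replicate block, 7660 probe sets were called after DES, 1764 in controls and 3696 in the interaction. The exact test gave p = 0.0286 for 6 of 11 hormone and interval genes. With arrays numbered 1 and 2, with arrays numbered 3 and 4, and without BN DES 3 and 4, 0 could reach it, since the smallest p those designs allow is 0.333, 0.333 and 0.0667, so these counts say nothing about stability.

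Of 119 named genes 114 were called, 94 of them under every one of 20 alternatives. Most named genes were picked through a call after DES with a large difference or a small adjusted p, which by itself raises both counts. Of all 6575 probe sets called after DES, 61.3% were kept with arrays numbered 3 and 4 alone, the lowest share. With the number sets as a block, 6574 were kept, the most. Leaving out 1 array ended the call of Cga, Emcn, Gh1, Igfbp2, Klf4, Plagl1, Pomc and Slc2a1. Median centering ended that of Gh1, Cga, Emcn, Igfbp2 and Srebf2. The cause was not tested. A named gene's other probe sets were not always called, and sequence differences between the strains under the probes were not examined. The number of arrays limits the precision.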

Other observations

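Beyond the genes described above, Hif1a, the hypoxia factor, and Angpt2, a destabilizing ligand of vessels, were lower in ACI after DES, at -0.84 and -1.35 on the log2 scale (limma adjusted p = 3.39e-05 and 0.00184). Pdk1, a kinase that slows entry of pyruvate into mitochondria, was higher (1039, 1001, 1109 and 1143 in ACI and 792, 901, 753 and 638 in BN, log2 0.48, limma adjusted p = 0.00519), as was the glucose transporter gene Slc2a1 (log2 0.41), whereas the glycolytic enzyme gene Pfkp was lower (log2 -1.15, limma adjusted p = 1.38e-06). Acaca, the first enzyme of fatty acid synthesis, and Fdft1, the first committed enzyme of sterol synthesis, were lower (log2 -0.76 and -0.68). Bmp7, a ligand of the BMP family, read 75, 110.1, 75.1 and 126 in ACI and 232, 209, 316 and 253 in BN (log2 -1.27, limma adjusted p = 8.43e-05), and it rose with DES in BN (log2 0.65). Nefl, a neurofilament of nerve and some endocrine cells, was lower (log2 -1.83, limma adjusted p = 1.58e-09).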
